A study of Mus musculus with 6 samples.

Results

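Cox6a2 encodes the muscle-type version of a nuclear subunit of cytochrome c oxidase, and the genes described here are Cox6a2, 4931431B13Rik, which is the transcript beside it on the chromosome, and 8 further genes for ubiquitous or tissue-specific oxidase subunits. They are the 10 gene names Cox6a2, 4931431B13Rik, Cox6a1, Cox4i1, Cox4i2, Cox7a1, Cox7a2, Cox8a, Cox8b and Cox6b2, taken by exact match to the gene names of the array. They have 11 of its 39429 probes, 1 each except Cox8a with 2, and make up 10 of its 31829 gene names. Cox6a2 and 4931431B13Rik were chosen by the measured difference of their signals between mutant and control arrays, the 2 lowest of all genes. That difference is therefore given as a description, with no test. The other 8 were listed for their place in the gene family.

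RNA came from islets of 6-week-old male mice, with 3 control and 3 mutant samples that each pooled 2 pancreata of 1 genotype. Controls were Nkx6.1fl/+;Pdx1-CreERTM and mutants Nkx6.1fl/-;Pdx1-CreERTM, from a cross of Nkx6.1-flox mice (mixed FVB/N and C57Bl/6J) with Pdx1-CreERTM mice (mixed Cd1 and C57Bl/6J). All mice of both groups carried a floxed allele and the tamoxifen-activated recombinase, and all received tamoxifen, 2 mg per 25 g body weight, in 4 injections from the age of 4 weeks. Recombination is therefore limited to cells in which the Pdx1 promoter drives the recombinase, controls can lose 1 copy of Nkx6-1, and mutants had a null allele before tamoxifen as well. The 6 samples were hybridised singly, in 1 colour, to Agilent mouse arrays. Values below are log2 spot signals corrected for background, minus the 75th percentile of each array. A value of 0 thus lies at the 75th percentile, and a difference of 1 is a factor of 2 in signal. The share of probes well above background was 73.4% to 76.3% on control arrays and 63.9% to 74.4% on mutant arrays, with mutants A and B the lowest. Slide 1 held control A with mutants B and C, and slide 2 held mutant A with controls B and C. The islet hormone genes were bright on every array, with Ins1 at a mean of 7.83 in the 3 controls and of 8.09 in the 3 mutants. Nkx6-1 itself was at 4.79, 4.85 and 4.64 in controls A, B and C and at 4.32, 4.06 and 4.45 in mutants A, B and C. Its difference was -0.48 (SE 0.14, limma, adjusted p = 0.131), and the groups did not overlap, as for 26.3% of all genes tested. It did not pass the threshold used here, a Benjamini-Hochberg adjusted p under 0.05 over 22775 genes. Whether the Nkx6-1 probe lies in the floxed sequence was not determined here. Its signal therefore does not measure how far recombination went.

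Cytochrome c oxidase, complex IV, is the last enzyme of the mitochondrial respiratory chain and passes electrons from cytochrome c to oxygen while pumping protons. Its catalytic core is encoded in mitochondrial DNA, and nuclear genes supply the surrounding subunits. Several of these exist as a ubiquitous, liver-type isoform and a muscle-type isoform that heart and skeletal muscle use in its place: Cox6a1 and Cox6a2, Cox7a2 and Cox7a1, and Cox8a and Cox8b. Cox4i2 is a lung-enriched partner of Cox4i1 that is known to respond to low oxygen, and Cox6b2 is a testis-enriched partner of Cox6b1. In beta cells the respiratory chain couples glucose oxidation to the ATP that triggers insulin secretion.

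The probes of the Cox6a pair and of the neighbouring transcript are shown because the results turn on what these oligonucleotides can tell apart. Each is 60 bases long. The first 2 lines give 30 bases round the longest run that the Cox6a2 and Cox6a1 probes have in common on the same strand, 4 bases in capitals, and the last line gives the whole probe of 4931431B13Rik.
Cox6a2: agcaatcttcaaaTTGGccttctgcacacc
Cox6a1: ccacgaaaaccctTTGGatgctaagctcgt
4931431B13Rik: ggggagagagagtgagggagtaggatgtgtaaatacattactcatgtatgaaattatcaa
Against the probes of the other listed genes, the Cox6a2 probe shared at most 8 bases on the same strand, with the second probe of Cox8a. With the probe of 4931431B13Rik the longest run was 5 bases. Whether a probe also binds transcripts of other genes was not tested, and short runs between probes cannot show it. The Cox6a2 probe lies at chr7:135349160-135349219 (mm9, the build of the files) and that of 4931431B13Rik at chr7:135345617-135345676, so their starts are 3543 bases apart. The files write both on the minus strand. The order of the coordinates in the files matched the strand in RefSeq's promoter table for 99.5% of 20779 probes. In the RefSeq gene order the 2 genes are direct neighbours, and 4931431B13Rik is a long noncoding RNA. On the minus strand its probe lies downstream of the Cox6a2 probe. Whether either probe lies in a coding or an untranslated exon was not determined here.

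Cox6a2 was 53.5-fold lower in mutant islets. Its normalized signal was 4.97, 4.82 and 5.18 in controls A, B and C and -0.302, -0.999 and -0.951 in mutants A, B and C. All 3 mutants lay more than 5 log2 units below the lowest control, and mutant A was the highest of the mutants. The group means were 4.99 ± 0.18 (SD, n = 3) and -0.75 ± 0.39 (SD, n = 3), a difference of -5.74 (SE 0.22, 95% interval -6.28 to -5.21). The spot was well above background on all 6 arrays and saturated on none, so the low mutant signals are measured values and not bounds. Before scaling, the background-corrected intensity was 60303, 70056 and 94071 in controls and 1952, 923 and 839 in mutants. With slide as a block the difference was -5.63, and it was -5.95 within slide 1 and -5.30 within slide 2. Without mutants A and B, on which the fewest probes were well above background, it was -5.94.

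The noncoding neighbour was 56.5-fold lower. 4931431B13Rik was at 0.66, 0.56 and 1.26 in controls A, B and C and at -4.78, -5.09 and -5.10 in mutants A, B and C. Here too the groups lay far apart, and mutant A was again the highest mutant and control C the highest control. The means were 0.83 ± 0.38 (SD, n = 3) and -4.99 ± 0.18 (SD, n = 3), a difference of -5.82 (SE 0.21, 95% interval -6.34 to -5.30). The spot was well above background on all 6 arrays, but the mutant signals stood within about a log2 unit of the lowest signal that passed as such on mutants A and B, which was -5.91 and -5.75. Under background corrections that keep more of the background the difference was smaller, -4.64 with normexp and -4.70 in the authors' deposited value table. With slide as a block it was -5.73, and within slides 1 and 2 it was -5.76 and -5.69.

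These 2 differences were the most negative of the 22775 genes tested, 4931431B13Rik first and Cox6a2 second. The next, Adam32, was at -3.72, a gap of 2.02 log2 units, and 14 genes in all were below -3. The median over all genes was -0.025, with quartiles at -0.26 and 0.18. Under normexp and in the deposited value table the order of the 2 was reversed. Under the main processing the 2 signals kept nearly the same distance within each array. Cox6a2 minus 4931431B13Rik was 4.31, 4.26 and 3.92 in controls and 4.48, 4.09 and 4.15 in mutants. The difference of their differences was thus 0.078, less than the spread between replicates (pooled SD 0.21). This depended on the background correction. Under normexp Cox6a2 was at -5.69 and 4931431B13Rik at -4.64, and in the deposited value table they were at -5.72 and -4.70. A distance between 2 probes says nothing about the relative amounts of the 2 RNAs.

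**Figure D1:**
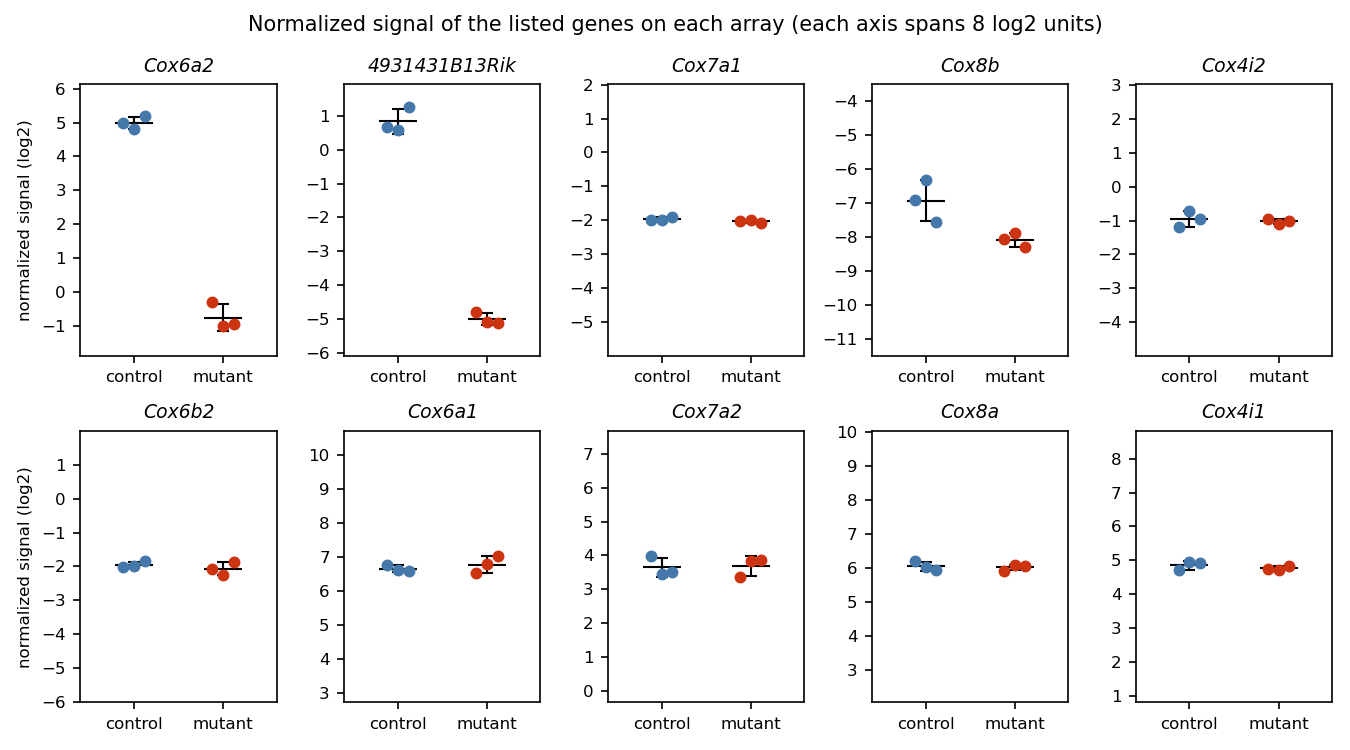
Normalized log2 signal (vertical axis, each spanning 8 log2 units) of the brightest probe of each of the 10 listed genes on the 3 control (blue) and 3 mutant (red) arrays; bars are means ± SD. Cox6a2 and 4931431B13Rik drop by -5.74 and -5.82, the probe of Cox8b is dim on every array, and for the other 7 genes the groups overlap.

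None of the other listed genes that could be tested passed the threshold. Of the 8, 7 were tested and 0 were called by limma, 0 had an unadjusted p under 0.05, and in 0 did the groups fail to overlap. The background shares over all genes tested were 2.53% called, 20.2% with an unadjusted p under 0.05 and 26.3% with groups that do not overlap. Including the pair that the list was built around, 2 of 9 tested genes were called, both lower, against a background of 1.12% called lower, and nothing is read from that count because the same contrast chose them. The 7 differences ran from -0.11 to 0.13 with a median of -0.059. The widest 95% intervals reached from -0.47 to 0.56, or from 1.39-fold lower to 1.47-fold higher.

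Of the 2 other muscle-type isoforms, Cox7a1 could be tested and Cox8b could not. Cox7a1, the heart and muscle form of subunit VIIa, was at -2.00, -2.00 and -1.90 in controls A, B and C and at -2.03, -1.98 and -2.07 in mutants A, B and C. The groups overlapped and were tight, with means of -1.97 ± 0.053 (SD, n = 3) and -2.03 ± 0.048 (SD, n = 3). The difference was -0.061 (SE 0.094, 95% interval -0.29 to 0.17, limma, adjusted p = 0.740). Its probe, at chr7:30970337-30970948 on the plus strand, covers 612 genomic bases with 60 bases of probe, so it joins separate blocks of the gene. It was well above background on all 6 arrays.

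Cox8b, the heart and muscle form of subunit VIII, had too little signal for a test. Its probe at chr7:148084852-148084911 was well above background on control B only. The normalized signal was -6.91, -6.33 and -7.54 in controls and -8.05, -7.88 and -8.30 in mutants, near the lowest signals that counted as well above background (-7.28 to -5.75 over the 6 arrays). The groups did not overlap, but no fold is given because the mutant arrays held no signal well above background. Without a filter on dim probes limma gave an adjusted p of 0.178. The size of the difference hung on the processing, from -1.53 under quantile normalization to -0.11 under normexp.

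The ubiquitous isoforms gave strong signals that overlapped between the groups. Cox6a1, the ubiquitous partner of Cox6a2, was at 6.76, 6.61 and 6.57 in controls A, B and C and at 6.52, 6.78 and 7.01 in mutants A, B and C. Mutant A was the lowest and mutant C the highest of the 6. Its difference of 0.13 (SE 0.15, 95% interval -0.25 to 0.50, limma, adjusted p = 0.675) was of the opposite sign under quantile normalization, at -0.11. Its probe lies at chr5:115795726-115795785 on the minus strand.

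Cox7a2, the liver-type form of subunit VIIa (probe at chr9:79603215-79603274, minus strand), was at 3.98, 3.45 and 3.51 in controls and 3.36, 3.83 and 3.88 in mutants. The arrays of slide 1 were the 3 highest, whatever the group, and with slide as a block the difference went from 0.042 (95% interval -0.47 to 0.56, limma, adjusted p = 0.926) to -0.12 (adjusted p = 0.425). Cox4i1, the common form of the largest nuclear-encoded subunit (chr8:123197924-123197983, plus strand), was at 4.71, 4.96 and 4.91 in controls and at 4.74, 4.72 and 4.85 in mutants, with a difference of -0.092 (95% interval -0.37 to 0.18, limma, adjusted p = 0.678).

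Cox8a, the ubiquitous form of subunit VIII, is the only listed gene with 2 probes. The brighter, at chr19:7289652-7289708, was at 6.20, 6.03 and 5.94 in controls and 5.92, 6.07 and 6.05 in mutants, with a difference of -0.037 (95% interval -0.32 to 0.24, limma, adjusted p = 0.878). The second, at chr19:7289722-7289781, had a difference of -0.10, controls lying at 5.68 ± 0.017 (SD, n = 3) and mutants at 5.58 ± 0.11 (SD, n = 3). On both probes the groups overlapped.

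The other tissue-type isoforms were measurable in islets and also overlapped. Cox4i2, the lung-enriched form of subunit IV (chr2:152590711-152590770, plus strand), was at -1.20, -0.73 and -0.95 in controls and -0.963, -1.096 and -1.0004 in mutants. The mutants fell inside the range of the controls, and the difference was -0.059 (95% interval -0.41 to 0.29, limma, adjusted p = 0.843). Cox6b2, the testis-enriched form of subunit VIb (chr7:4703488-4703547, minus strand), was at -2.01, -2.00 and -1.85 in controls and -2.07, -2.25 and -1.87 in mutants. Its difference was -0.11 (95% interval -0.43 to 0.21, limma, adjusted p = 0.663). All of these probes were well above background on all 6 arrays.

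**Figure D2:**
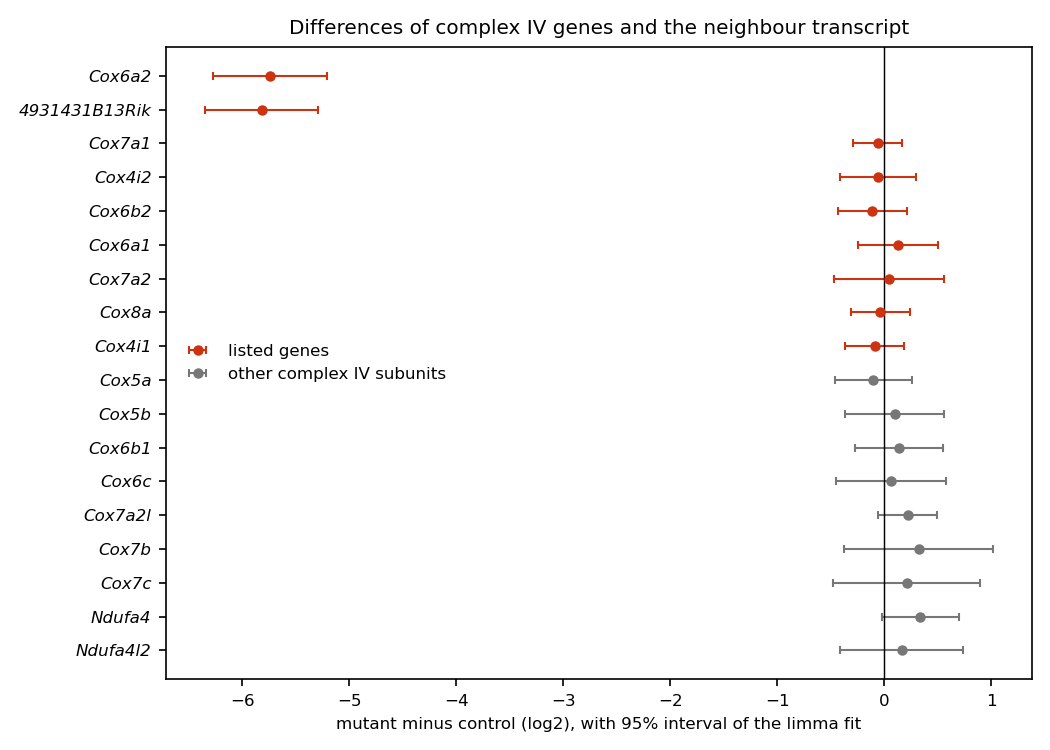
Mutant minus control difference on the log2 scale (horizontal axis) with its 95% interval from limma, for the 9 listed genes that were tested (red) and 9 other complex IV subunits (grey). The intervals of Cox6a2 and 4931431B13Rik lie below -5, and all others include 0.

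Muscle-type and ubiquitous isoforms were compared as a log ratio within each array, since levels of different probes cannot be ranked. A change in such a ratio shows unequal change of the 2 genes. Cox6a2 minus Cox6a1 was -1.79, -1.79 and -1.39 in controls A, B and C and -6.82, -7.78 and -7.96 in mutants A, B and C. The ratio thus went down by 5.87 on the log2 scale (mutant minus control -5.87, pooled SD 0.46), which is a description because Cox6a2 was chosen for this contrast. Within slides 1 and 2 the value was -6.08 and -5.23.

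In the other pairs the ratio changed by less than the spread between replicates. Cox7a1 minus Cox7a2 differed by -0.10 (pooled SD 0.30, exact permutation test, two-sided p = 1, n = 3 per group). Cox4i2 minus Cox4i1 differed by 0.033 (pooled SD 0.098, exact permutation p = 0.6), and Cox6b2 minus Cox6b1 by -0.25 (pooled SD 0.25, exact permutation p = 0.2). After Benjamini-Hochberg adjustment over these 3 pairs the exact permutation values were 1, 0.9 and 0.6. With 3 arrays against 3 this test cannot go below 0.1, so it could not have called any pair. Cox6b1, the ubiquitous partner of Cox6b2, had a difference of 0.14 (SE 0.17, limma, adjusted p = 0.676). The pair of Cox8b and Cox8a could not be compared because Cox8b was too dim.

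The other complex IV subunits that were tested gave no call either. Of 14 nuclear subunit genes listed besides, 11 were on the array under a matched name and 9 were tested, with 0 called and 0 at an unadjusted p under 0.05 (limma; background 2.53% called). Their median difference was 0.16, against -0.025 over all genes. The largest were Ndufa4, a small subunit first assigned to complex I, at 0.34 (95% interval -0.022 to 0.69, adjusted p = 0.273) and Cox7b at 0.32 (95% interval -0.37 to 1.01, adjusted p = 0.565). Cox5a and Cox5b, subunits at the matrix side of the enzyme, were at -0.10 and 0.097, and Cox6c was at 0.066. Cox8c, a testis-type form of subunit VIII, was well above background on no array.

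Genes that build the enzyme showed the same lack of calls. Of 26 assembly, copper delivery and stability genes, 24 were tested, with a median difference of 0.021. Of these, 0 were called and 2 had an unadjusted p under 0.05 (background 2.53% and 20.2%). Higd1a, a hypoxia-inducible protein that binds the oxidase, had the largest difference at 0.65 (limma, adjusted p = 0.0722). Its means were -0.29 ± 0.13 and 0.36 ± 0.17 (SD, n = 3 each) in controls and mutants, and when limma's variance trend and robust option were used, 1 gene of this list passed. Cox17, the copper chaperone that supplies the oxidase, was at -0.33 (adjusted p = 0.371). Of 4 genes listed around cytochrome c (Cyc1, Cycs, Cyct and Hccs) 0 were called and 0 had an unadjusted p under 0.05. Cycs, the somatic cytochrome c, was at 0.11 and the heme lyase Hccs at -0.11.

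Other muscle-type genes of energy metabolism were listed beside Cox6a2. Of 16 listed, 11 were tested, with a median difference of 0.0012. Of these, 0 were called and 3 had an unadjusted p under 0.05 (background 2.53% and 20.2%). Slc25a4, the muscle-type ADP/ATP carrier, had means of 4.54 in controls and 4.48 in mutants (difference -0.053, SE 0.094). Pgam2, the muscle phosphoglycerate mutase, was at -0.73 (limma, adjusted p = 0.382) and Ucp3, an uncoupling protein of muscle, at 0.54 (adjusted p = 0.0868). Ucp3 passed with the variance trend and robust option (adjusted p = 0.0472). Ckmt2, Mb, Ampd1 and Smpx were well above background on no array.

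Of 17 regulators of mitochondrial and muscle genes 15 were tested, with a median difference of -0.018. Of these, 0 were called and 3 had an unadjusted p under 0.05 (background 2.53% and 20.2%). Ppargc1b, a coactivator of mitochondrial biogenesis, was closest to the threshold, with means of -3.96 ± 0.081 and -4.89 ± 0.29 (SD, n = 3 each) in controls and mutants (difference -0.93, limma, adjusted p = 0.0512). It passed under quantile normalization (0.0285), median scaling (0.0408), in the deposited value table (0.0390) and with only probes above background on all arrays (0.0392). Its difference was -0.44 under normexp and -0.53 in the deposited value table. Mef2c, a factor of muscle genes, was at 0.79 (adjusted p = 0.0876). Esrra and Tfam, which act on oxidative genes and mitochondrial DNA, were at -0.094 and -0.11. Myog, a muscle determination factor, was well above background on no array.

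Markers of muscle tissue were low in both groups. Of 15 skeletal muscle markers 9 were tested, and Myh1, Myh2, Myh4 and Casq1, the fast myosins and calsequestrin, were well above background on no array. The summed signal of the 9 on the log2 scale was -0.063 to -0.016 in controls and -0.54 to -0.30 in mutants. It was thus lower in all mutants, but it leans on Atp2a1, which had the highest signal of the 9 in controls. The 9 differences ran from -1.01 to 0.87 with a median of -0.15. The 1 marker called was Atp2a1, the fast-muscle calcium pump, which was lower (background 1.12% called lower). Its means were -1.39 ± 0.12 and -2.41 ± 0.28 (SD, n = 3 each) in controls and mutants (difference -1.01, limma, adjusted p = 0.0448). That call was lost without control A (0.0671), control B (0.174), control C (0.177), mutant B (0.155) or mutant C (0.108), and without a filter on dim probes (0.0713). Acta1, skeletal actin, was at 0.28 (adjusted p = 0.272). Of 10 heart muscle markers 3 were tested, and Tnni3, Tnnt2, Pln and Ryr2 were well above background on no array. Of the 3, 0 were called and 2 had an unadjusted p under 0.05 (background 2.53% and 20.2%). Actc1, cardiac actin, was at -1.28 (limma, adjusted p = 0.132; above background on 4 arrays) and Myh6, a cardiac myosin, at -0.33 (adjusted p = 0.127; on 5 arrays). The third, Nppa, had the highest signal of the 3, with a control mean of -3.94, and was at -0.17 (limma, adjusted p = 0.621). The summed signal of the 3 was -3.36 to -3.13 in controls and -3.79 to -3.28 in mutants. Brown fat markers, from another tissue that uses muscle-type isoforms, had 2 of 5 tested and 0 called. Of the 2, 1 had an unadjusted p under 0.05 (background 20.2%). Ucp1 was well above background on no array. Cidea was at 1.14 (limma, adjusted p = 0.0765) and Otop1 at -0.072 (adjusted p = 0.895), and the 2 summed to -2.72 to -2.28 in controls and -1.89 to -1.17 in mutants. The part of these tissues in the Cox6a2 signal was not tested.

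In pooled islets, fewer cells of a type and less RNA per cell cannot be told apart. The summed signal of 7 beta cell markers was 9.40 to 9.90 in controls and 9.27 to 10.01 in mutants, which overlap. That sum is carried by Ins1, Ins2 and Iapp, with control means of 7.83, 7.78 and 7.47, and says little about the dimmer markers. Of these 7, 4 had an unadjusted p under 0.05 and in 4 the groups did not overlap (background 20.2% and 26.3%), with a median difference of -0.77. At the threshold 2 of the 7 fell (background 1.12% called lower), Slc2a2, the GLUT2 transporter, by 2.01 and Ucn3, a peptide of mature beta cells, by 1.24 (limma, adjusted p = 0.0415 and 0.0236), and 0 rose. Both calls were lost without control B (0.159 and 0.114), control C (0.169 and 0.118), mutant B (0.149 and 0.0951) or mutant C (0.0916 and 0.0652). That of Slc2a2 was also lost without control A (0.0667), under quantile normalization (0.0502) and without a filter on dim probes (0.0629). Without both mutants A and B the adjusted p values were 0.0585 for Slc2a2 and 0.0708 for Ucn3. Ins2 was at 0.25 (adjusted p = 0.702). The 8 acinar markers, from the exocrine tissue around islets, were all tested with 0 called and 0 at an unadjusted p under 0.05. Their summed signal was 9.87, 9.94 and 10.2 in controls and 9.27, 10.73 and 11.26 in mutants A, B and C. The largest differences were those of the elastases Cela2a, at 0.71, and Cela1, at 0.59 (limma, adjusted p = 0.608 and 0.645).

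Alpha and delta cell markers, 5 and 3 genes, had 0 calls each, with 1 in each list at an unadjusted p under 0.05 (background 20.2%). Their summed signals were 8.26 to 8.82 and 7.67 to 8.44 in controls and 8.32 to 9.19 and 8.29 to 8.83 in mutants. Irx2 and Ttr led the alpha list at 0.59 and 0.49 (limma, adjusted p = 0.144 and 0.299), and Rbp4 and Hhex the delta list at 1.30 and 0.74 (adjusted p = 0.0930 and 0.321). The summed signal of 3 leukocyte markers was 3.04 to 3.41 in controls and 2.62 to 2.77 in mutants. Of the 3, 0 were called and 1 had an unadjusted p under 0.05 (background 20.2%). The T cell gene Cd3e was at -0.55 and the macrophage gene Cd68 at -0.29 (limma, adjusted p = 0.0957 and 0.783). Ptprc, the third of the list, went the other way at 0.17 (limma, adjusted p = 0.727). The sum follows mainly Cd3e, whose control mean was 3.25, against -3.69 for Ptprc and -5.11 for Cd68. The 5 duct, 3 endothelial and 3 tested smooth muscle markers gave 0 calls, with 1, 0 and 0 at an unadjusted p under 0.05 (background 20.2%). Cftr, a chloride channel of duct cells, had the largest difference of all the marker genes, at 3.12 (SE 0.70, limma, adjusted p = 0.0831). Its signal was well above background on 5 arrays, with means of -6.26 ± 1.02 and -3.14 ± 1.06 (SD, n = 3 each) in controls and mutants. With slide as a block it passed, at 2.53 (adjusted p = 0.0157), and under normexp the difference was 1.73 (adjusted p = 0.0773). The duct keratin Krt19 was at -1.10 (adjusted p = 0.291), the endothelial genes Cdh5 and Kdr were at 0.32 and -0.21 (adjusted p = 0.489 and 0.423), and the smooth muscle genes Acta2 and Tagln were at 0.17 and 0.076 (adjusted p = 0.564 and 0.786). Whether any of these cell types had a part in the Cox6a2 difference was not tested.

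Other genes around Cox6a2 differed far less between the groups. Within 100 kb of the Cox6a2 probe on chromosome 7, besides the noncoding neighbour, 7 genes were tested, with 1 called lower and 0 higher (background 1.12% and 1.41%) and a median difference of -0.060. Armc5, an armadillo-repeat protein gene 39.2 kb away at chr7:135388364-135388423 on the opposite strand, was at 1.69, 2.01 and 1.99 in controls A, B and C and 1.23, 1.06 and 1.13 in mutants A, B and C. The groups were apart and the fold was 1.69 lower (difference -0.75, SE 0.13, limma, adjusted p = 0.0452). This call was lost without control B (0.180), control C (0.183), mutant A (0.0745), mutant B (0.163) or mutant C (0.107), under quantile normalization (0.0539), in the deposited value table (0.0546) and without a filter on dim probes (0.0777). Without both mutants A and B the adjusted p was 0.206.

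Nearer to Cox6a2 was Itgad, an integrin gene with a probe on the plus strand that starts 259 bases from that of Cox6a2. The Itgad probe, at chr7:135348901-135348960, lies between the probes of 4931431B13Rik and Cox6a2. It was well above background on 1 array, control B, and was not tested. The predicted gene 9130023H24Rik, 30.8 kb away, was at -0.77 (95% interval -1.69 to 0.15, limma, adjusted p = 0.321). Itgam and Itgax, leukocyte integrins, were at -0.49 (adjusted p = 0.249) and 0.0019 (adjusted p = 0.999). A second Itgam probe, well above background on 5 arrays, was at -0.40. Tgfb1i1 was at -0.060, Rusf1 (BC017158 in the files) at 0.0053 and the glucose cotransporter gene Slc5a2 at 0.21, and all 3 missed the threshold with adjusted p values of 0.790, 0.984 and 0.878 in the limma fit.

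**Figure D3:**
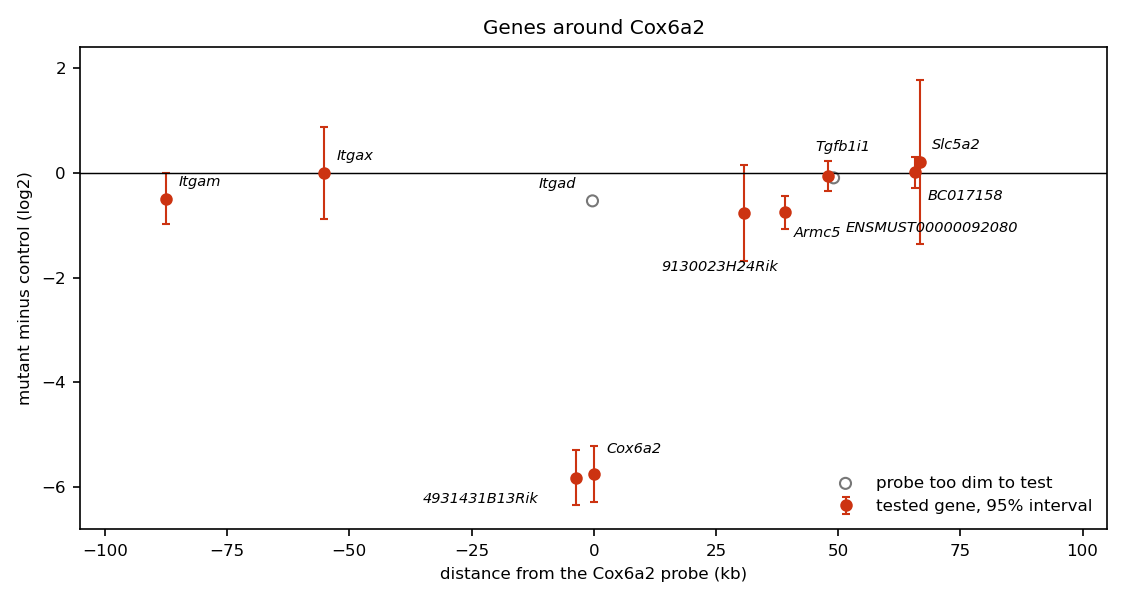
Mutant minus control difference on the log2 scale (vertical axis) against distance from the Cox6a2 probe in kb (horizontal axis), with 95% intervals for tested genes (red) and open circles for probes too dim to test. The 2 probes 3543 bases apart lie near -5.8, and the 7 other tested genes lie between -0.77 and 0.21.

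The genes whose pattern over the 6 arrays was nearest to that of Cox6a2 were found by the Euclidean distance of log2 values, each gene centred on its own mean, among genes with a symbol. The nearest was 4931431B13Rik, at 0.43. Then came Adam32, a testis-type member of a membrane metalloprotease-like family, at 2.78, Angptl7, a secreted protein gene, at 2.84, Insyn2a (Fam196a in the files, well above background on 4 arrays) at 2.87, T2 at 3.28 and the cation channel gene Trpm5 at 3.29. The gap between the first and the second of them was larger than the spread of the other 5. Their differences were -3.72 for Adam32, -3.60 for Angptl7, -3.60 for Insyn2a, -3.24 for T2 and -3.16 for Trpm5. This likeness rests on 6 arrays in 2 groups and mainly orders genes by the size of the difference.

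**Figure D4:**
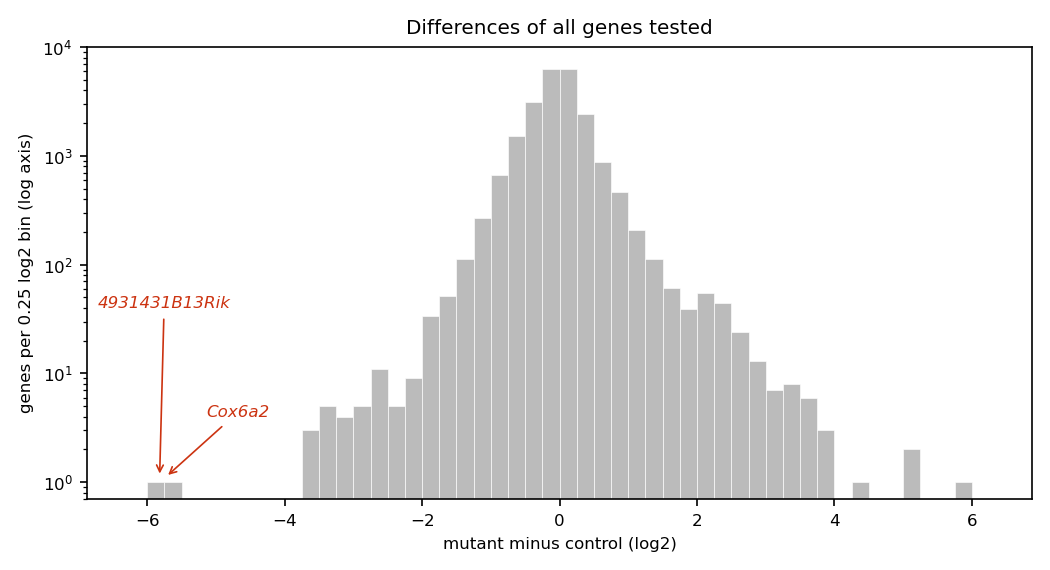
Number of genes (vertical axis, logarithmic) by mutant minus control difference on the log2 scale (horizontal axis, bins of 0.25) for all 22775 genes tested. Cox6a2 and 4931431B13Rik stand alone at the left end, 2.02 log2 units below the next gene, while the bulk lies round the median of -0.025.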

How the data were processed

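Each of the 6 islet RNA samples (150 ng, labelled with Cy3) was measured on 1 array. Scans were quantified by the authors with Agilent Feature Extraction 10.7.3.1, per the submitters' processing notes, giving spot intensities corrected for background within each array, per the file headers, with coordinates in mm9. The same deposited files hold flags (other values) for saturation, outliers and signal well above background. The authors' deposited value table holds linear intensities equalized between arrays by an unstated method; its Spearman correlation with the raw median signal was at least 0.999 on each array, column medians were 267 to 275, and it served as an alternative.

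Log2 intensities were scaled to the 75th percentile of each array. A probe was tested if well above background on all 3 arrays of at least 1 group, and the brightest tested probe stood for a gene. Tests used R 4.3.3 and limma 3.58.1 (lmFit, eBayes, two-sided, Benjamini-Hochberg over 22775 genes), checked on simulated data. The number of arrays limits the precision. Current symbols came from RefSeq accessions (GRCm38.p6, names only; 15528 tested genes matched). The listed genes, the 16 gene lists, the naming rule and the tests were chosen with earlier results of these data known. The rule named, per list, up to 4 called genes or the 2 with the largest difference, tested genes within 100 kb of Cox6a2 and the 6 most like it; others named were chosen after their values were seen. Mitochondrially encoded subunits were not analysed here, and alternatives are in the closing section.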

Additional observations from a re-analysis of the deposited data

How the results depend on the processing

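The number of called genes, 576, changed with the arrays used, the block and the threshold. It ran from 13 (without control B) to 396 with 1 array left out, where the loss of control C left 17, of mutant B 22, of mutant C 180, of mutant A 305 and of control A 396, and was 150 without mutants A and B, an alternative chosen after seeing the data in which the lone mutant is assumed to vary like the controls. It was 1514 at an adjusted p under 0.1. With the letter A to C as a replicate block the limma count was 0, although 3163 had an unadjusted p under 0.05; same-letter samples deviated from their group means at correlations of -0.23, -0.19 and -0.031, and no label says that letters mark shared litters. The assembly list had 1 call with a variance trend and robust estimation and 1 at an adjusted p under 0.1.

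Cox6a2 and 4931431B13Rik stayed lower under all alternatives run, from -5.97 to -5.30 and from -5.95 to -4.64. Cox6a2 moved beyond 1 SD within slide 2 (-5.30, and -5.23 for Cox6a2 minus Cox6a1), and 4931431B13Rik under normexp (-4.64) and in the deposited value table (-4.70). The 7 other tested genes passed under no alternative, at adjusted p values of 0.310 or more, but their small differences changed sign or size. Under quantile normalization Cox6a1 was at -0.11, Cox7a2 at -0.030 and Cox4i2 minus Cox4i1 at 0.15. In the deposited value table Cox6a1 was at -0.11 and Cox7a2 at -0.013. With slide as a block Cox4i2 was at 0.015 and Cox7a2 at -0.12. Within slide 1 Cox4i1 was at 0.078, Cox4i2 at 0.15 and Cox7a2 at -0.13, and within slide 2 Cox6a1 was at -0.068, Cox4i1 at -0.20 and Cox7a2 at -0.12. With arrays left out, Cox4i2 ran from -0.18 to 0.056, Cox7a2 from -0.058 to 0.23, Cox8a from -0.096 to 0.035 and Cox6b2 from -0.21 to 0.079. The cause of these shifts was not tested. Dim signal leaves Cox8b and Itgad without a measured difference.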
